A study of Mus musculus and Acomys cahirinus with 84 samples.

Results

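The 10 genes described here belong to the p53 feedback network and were followed through irradiated skin fibroblasts of 3 rodent populations. They are the gene of the transcription factor itself (Trp53), its inhibitors (Mdm2, Mdm4 and Ppm1d) and 6 genes that p53 is known to activate (Ccng1, Trp53inp1, Zmat3, Pidd1, Btg2 and Plk2). They were chosen by name. All 10 were found among the 56980 gene rows of the mouse table and all 10 among the 19818 rows of the Acomys cahirinus table. The cells were primary skin fibroblasts of mice labelled C56BL6, of wild mice and of the African spiny mouse A. cahirinus. They received 0, 10 or 20 Gy of gamma radiation and were harvested 24 h or 12 d later. At 12 d there were 2 unirradiated groups, labelled untreated and untreated passaged. The 21 groups held 4 libraries each, 84 in all, made from polyadenylated RNA. Each replicate number stands for 1 animal code within a population, so by these codes the 4 libraries of a group come from 4 animals; age and sex are not given in the labels. Each time has its own batch label, so the effect of time cannot be told apart from that of batch, and tests stay within a time. The RNA is that of whole cultures, in which fewer cells of a type and less RNA per cell cannot be told apart.

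The protein p53 is held at a low level in unstressed cells because Mdm2 ubiquitinates it and Mdm4 covers its activation domain. Broken DNA activates the kinases Atm and Chek2, which phosphorylate p53 and Mdm4 and loosen this hold, largely without new Trp53 transcription. Stabilised p53 then activates Mdm2 itself, the classic negative feedback loop, and with it Ppm1d, a phosphatase that removes the activating phosphates. In fibroblasts the same programme is known for a lasting arrest after radiation. Messenger RNA shows the transcriptional side of this circuit only, and neither the amount nor the phosphorylation of p53 protein was measured here.

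Values are counts per M counts (CPM), scaled for library composition, and are listed in the order of replicates 1 to 4. A change is a log2 fold change with its standard error (SE), and "rose" or "fell" is used where edgeR's quasi-likelihood test, also meant by "passed", with Benjamini-Hochberg adjustment over all genes tested gave an adjusted p under 0.05. Because the libraries of a number share an animal by their codes, a second fit took the animal as a block. Its values are given where they change a call.

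Some libraries stand apart. Library depth was 17.42 to 52.86 M counts, lowest in the wild 24 h 10 Gy replicate 1, which also had 17843 genes detected where the rest of its group had 21846 to 22253. In wild mice at 12 d, the libraries numbered 1 differed from the 24 h libraries numbered 1 at 7 to 9 of 24 genes that are switched on in some animals and off in others. From the libraries numbered 4 they differed at 0 of these genes, both at 24 h and at 12 d. The wild 12 d libraries numbered 1 and 4 may thus come from the same animal, and those groups may hold fewer than 4 animals. The wild 12 d results are therefore also given with replicates 1 and 4 summed into 1 sample. The fibroblast genes Col1a1 (1330 to 30100 CPM) and Vim (2290 to 7940 CPM) were high in all 84 libraries, whereas the medians of the fibroblast markers Dcn, Lum and Fap in mice were 18.8, 0.474 and 0.364 CPM (C56BL6) and 8.87, 0.416 and 0.336 CPM (wild). Of the 5 leukocyte markers Ptprc, Adgre1 and Cd3e reached at most 1.24, 0.201 and 0.141 CPM, whereas Cd68 reached 7.06 CPM and Csf1r lay between 4.46 and 22.6 CPM (C56BL6) and between 6.09 and 46 CPM (wild), with a highest value of 1.53 CPM in A. cahirinus. Of the 4 endothelial markers Pecam1 and Cdh5 reached at most 2.04 and 2.05 CPM, and Kdr and Tek at most 27 and 7.03 CPM. The 7 libraries of C56BL6 replicate 1 held RNA of keratinocyte markers (Krt5 60.9 to 416 CPM and Krt14 132 to 422 CPM, against at most 1.21 and 0.0747 CPM in replicates 2 to 4) and RNA of the p53 relative Trp73 (27.7 to 77.2 CPM, against at most 0.292 CPM). The smooth muscle markers Des (776 to 1350 CPM) and Myh11 (435 to 1530 CPM) were high in wild replicate 1 at 24 h and less so in wild replicate 3 at 24 h (316 to 401 and 342 to 412 CPM), and Des was at 236 to 1550 CPM in all A. cahirinus libraries. The part of these cells in the results below was not tested beyond the fits that leave out each replicate number.

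Where p53 could bind is shown first, because 4 of the 10 mouse genes hold a close match to its binding site. The transcribed span of each gene plus 250 bases upstream was searched on both strands of GRCm39 for the published p53 full-site consensus, 2 units of 10 bases without a spacer, with at most 1 mismatch in the 20 bases. The fixed C and G of each unit had to match. There were 7 matches in 227 kb, or 3.08 per 100 kb, against 0.18 per 100 kb over the genome (4699 matches). The genes were chosen as parts of the p53 network and their windows are gene spans, so these rates are a description and no test of enrichment. The matches are printed with capitals over the whole matching stretch, any mismatched base included, all read on the minus strand, which is the coding strand of these 4 genes.
Mdm2, intron, chr10:117535806-117535865: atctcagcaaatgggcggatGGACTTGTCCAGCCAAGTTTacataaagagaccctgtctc
Mdm4, exon, chr1:132947179-132947198: GAACATGTCCAAACCTGTCT
Mdm4, intron, chr1:132948013-132948082: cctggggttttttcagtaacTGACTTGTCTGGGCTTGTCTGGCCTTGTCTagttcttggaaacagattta
Ccng1, intron, chr11:40645743-40645802: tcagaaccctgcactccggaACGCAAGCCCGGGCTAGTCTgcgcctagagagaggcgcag
Ccng1, upstream, chr11:40646289-40646308: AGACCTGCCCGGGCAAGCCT
Zmat3, exon of a retained-intron transcript, chr3:32418480-32418499: AAACAAGCCCAGGCATGTCT
The Zmat3 site matched with 0 mismatches and lies 1664 bases from the gene's start. The Mdm4 intron stretch holds 2 overlapping matches. The upstream Ccng1 site lies 160 bases before the gene's start, in an exon of the long noncoding gene Gm57413, and was the 1 match among the 8 members found in a table of 32851 RefSeq promoters (build GRCm38.p6), of which 22, or 0.067%, held a match. No match was found in the windows of Trp53, Ppm1d, Trp53inp1, Pidd1, Btg2 and Plk2. These are matches of letters; binding was not measured.

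Against untreated cells of the same time, Mdm2, Ccng1, Trp53inp1 and Pidd1 were higher after 20 Gy at all 4 replicate numbers of every population at both times, while Ppm1d did not pass the test in any of these 6 comparisons. In C56BL6 mice 2 of 10 members were called at 24 h, both higher (Mdm2 and Pidd1), where 0.0895% of all genes tested were called in either direction, and 6 were called at 12 d, all higher (Trp53, Mdm2, Ccng1, Zmat3, Pidd1 and Plk2), where 26.5% were. In A. cahirinus 5 were called at 24 h, all higher (Mdm2, Ccng1, Trp53inp1, Zmat3 and Pidd1), against 3.59% of all genes. At 12 d 9 were called against 31.8%, of which 7 rose and Trp53 and Mdm4 fell. In wild mice 0 members were called at 24 h (0.0% of all genes) and 0 at 12 d (0.0694%), although 5 and 6 members had an unadjusted p under 0.05 and DESeq2 called 4 and 5. The share of all genes is not given for the unadjusted p or for DESeq2, so those counts are a description only. The median log2 change of the 10 members was 0.34, 0.7 and 0.64 at 24 h in C56BL6, wild and A. cahirinus cells, and 0.54, 1.02 and 0.95 at 12 d, where the median over all genes lay between -0.013 and 0.031.

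With the animal as a block the counts became 6 of 10 at 24 h and 8 of 10 at 12 d in C56BL6 mice (17.6% and 47.5% of all genes), 7 and 7 in wild mice (12.5% and 15.4%), and 8 and 9 in A. cahirinus (24.1% and 49.2%). With wild replicates 1 and 4 summed the wild 12 d count was 0, and with the block as well it was 3 (2.49% of all genes). The counts also moved when 1 replicate number was left out. Those fits had no block and fewer libraries, and the fit with the block was not repeated in this way. In C56BL6 mice at 24 h the count was 4 without replicate 1 and 0 without replicate 2, 3 or 4, and at 12 d it was 2 without replicate 3 and 3 without replicate 4. In A. cahirinus at 24 h it was 1 without replicate 1 or replicate 3, and at 12 d it was 6 without replicate 3 or replicate 4. In wild mice at 12 d it was 2 without replicate 3 (Mdm2 and Ccng1). The plot of change at 20 Gy gives all 60 values.

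**Figure D1:**
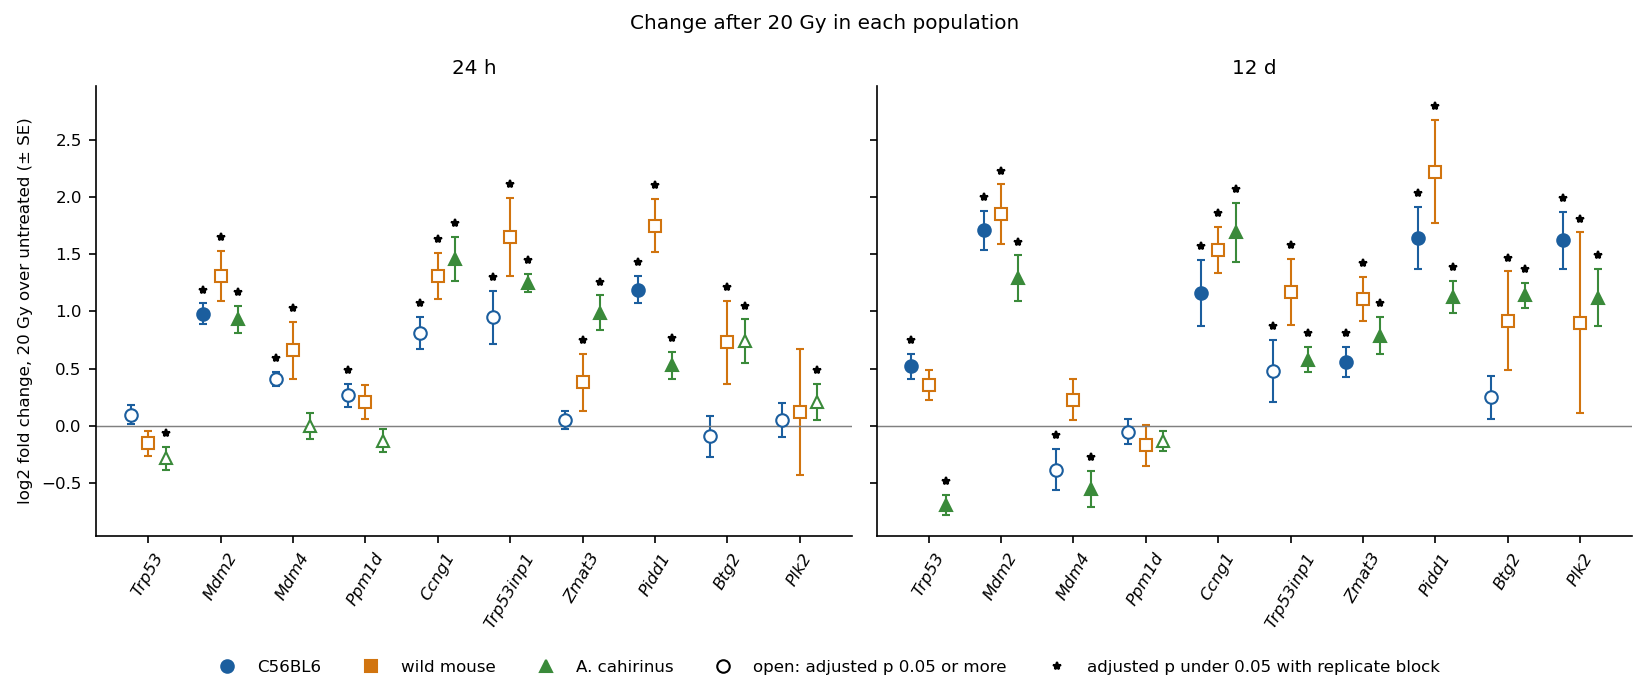
Log2 fold change of the 10 genes at 20 Gy over untreated cells, with its SE, at 24 h and at 12 d; colours and shapes mark the 3 populations, filled symbols passed the adjusted p of 0.05 and stars passed it with the animal as a block. Mdm2, Ccng1, Trp53inp1 and Pidd1 lie above 0 in every population at both times, and Trp53 lies at 0.52 in C56BL6 mice and at -0.69 in A. cahirinus at 12 d.

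Trp53, the gene of p53, did not pass the test in any population at 24 h. C56BL6 cells had 125, 129, 102 and 111 CPM untreated and 124, 132, 121 and 121 CPM after 20 Gy. In wild mice the values were 100, 123, 126 and 118 CPM and 105, 93.5, 110 and 107 CPM. In A. cahirinus they were 113, 84.3, 110 and 122 CPM and 82.3, 80.8, 91.2 and 92.5 CPM. The dose groups overlapped in all 3 populations, and the changes were 0.1 (SE 0.08), -0.15 (SE 0.11) and -0.28 (SE 0.1). All 4 animals of A. cahirinus were lower after 20 Gy, and in the fit with the animal as a block Trp53 fell there by 0.27 (adjusted p = 0.0197).

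At 12 d, against untreated cells, Trp53 moved in opposite directions in C56BL6 mice and A. cahirinus. In C56BL6 mice it stood at 72, 75.4, 57.8 and 59.1 CPM untreated and at 96.5, 103, 87.5 and 89.5 CPM after 20 Gy, a rise of 0.52 (SE 0.11, adjusted p = 0.0107) with no overlap between the groups. In A. cahirinus it stood at 108, 101, 108 and 112 CPM untreated and at 60.5, 60.6, 63.8 and 76.4 CPM after 20 Gy, a fall to 0.618 of the untreated level (log2 -0.69, SE 0.09, adjusted p = 0.00127) that again left no overlap. The fall passed the threshold without any 1 of the 4 replicates (log2 -0.76 to -0.64), the C56BL6 rise in 2 of those 4 fits, with adjusted p up to 0.0632 without replicate 3 or replicate 4. Wild mice had 80.8, 55.8, 66.4 and 75.6 CPM untreated and 88.2, 90.5, 80.4 and 89.6 CPM after 20 Gy, a change of 0.36 (SE 0.13) that did not pass the test (adjusted p = 0.286). Each wild replicate was higher after 20 Gy, but the lowest irradiated library lay just below the highest untreated one.

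The difference between populations was tested as such, with untreated and not passaged cells as the reference. At 12 d the change of Trp53 at 20 Gy was lower in A. cahirinus than in C56BL6 mice by 1.21 on the log2 scale (interaction -1.21, SE 0.14, adjusted p = 0.000143), and this passed the threshold in all 4 fits that left out a replicate number (-1.25 to -1.18). Against wild mice the interaction was -1.04 (SE 0.16, adjusted p = 0.00652). It no longer passed without replicate 1 or without replicate 4, and ranged from -1.12 to -0.92. With wild replicates 1 and 4 summed it was -1.08 (adjusted p = 0.025). Between wild and C56BL6 mice 0 of 10 members differed in their change by edgeR or DESeq2 (0 at 24 h and 2 at 12 d with an unadjusted p under 0.05), where 0.0% of all genes did at 24 h and at 12 d. With the block the member counts were again 0, against 0.647% and 0.101% of all genes.

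**Figure D2:**
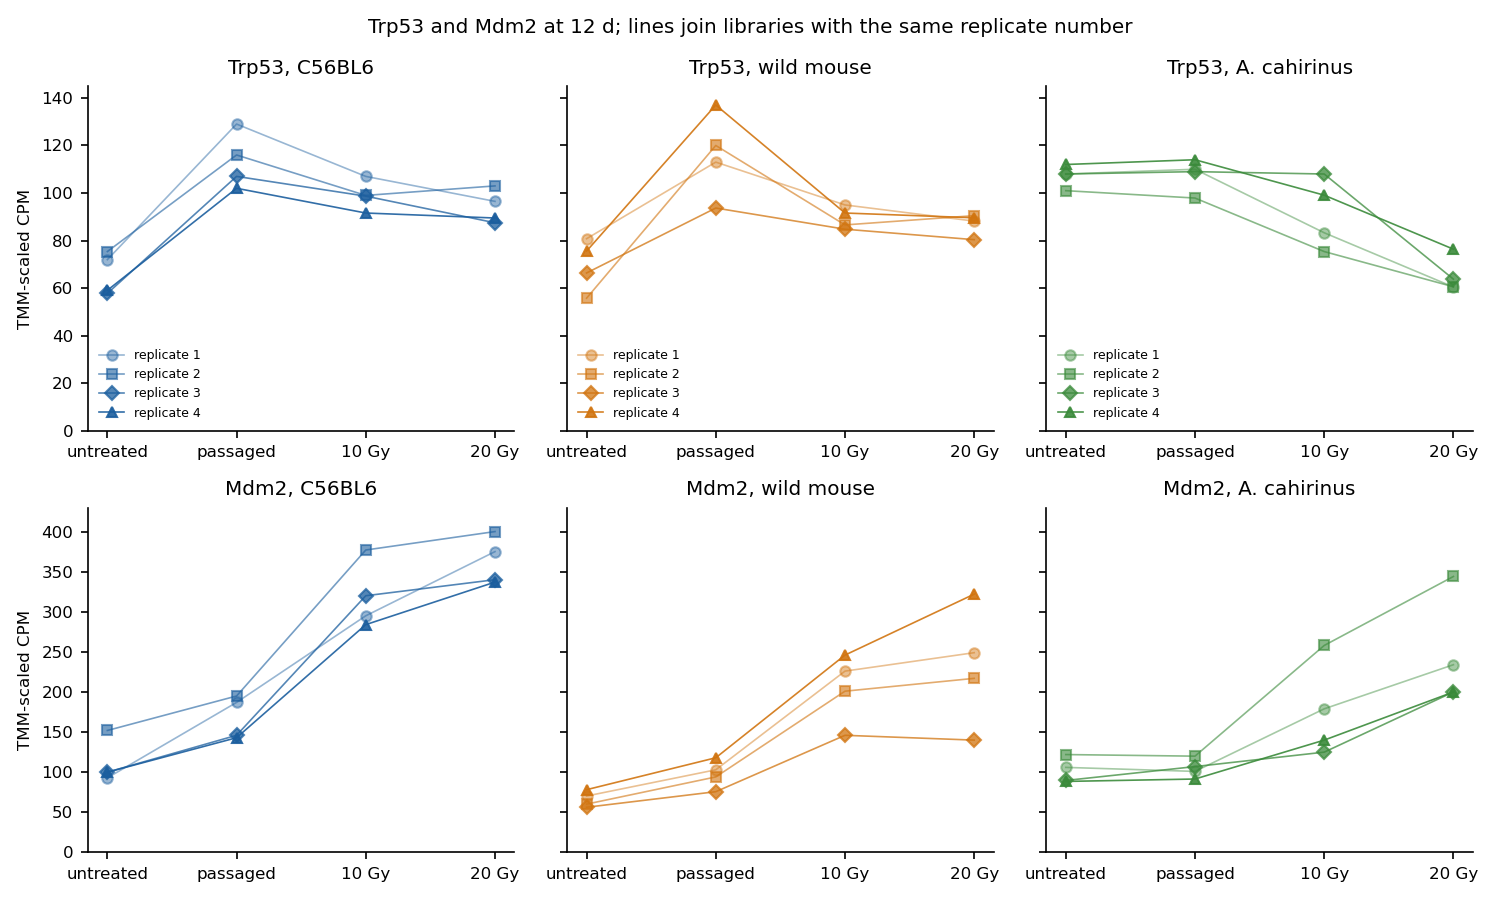
Trp53 and Mdm2 in CPM at 12 d in untreated, passaged, 10 Gy and 20 Gy cells of the 3 populations; points are libraries and lines join the libraries of 1 replicate number. Trp53 is higher after 20 Gy than in untreated C56BL6 cells and lower than in untreated A. cahirinus cells, where it lies between 60.5 and 76.4 CPM, while Mdm2 is higher after 20 Gy in all 3 populations.

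Mdm2, the ubiquitin ligase that marks p53 for destruction and is itself a p53 target, was the one inhibitor that rose at both times in C56BL6 mice and A. cahirinus. In C56BL6 mice at 24 h it stood at 220, 217, 201 and 175 CPM untreated, 377, 364, 378 and 350 CPM after 10 Gy and 407, 395, 423 and 371 CPM after 20 Gy. The irradiated libraries lay far above the untreated ones and the 2 doses overlapped. The rise at 20 Gy was 1.97-fold (log2 0.98, SE 0.09, adjusted p = 0.0269). It was not past the threshold without replicate 2, 3 or 4, in which fits the adjusted p reached 0.447 at log2 changes of 0.95 to 1.01. In A. cahirinus at 24 h Mdm2 went from 97.4, 118, 88.9 and 89.4 CPM to 195, 194, 173 and 176 CPM, a 1.91-fold rise (log2 0.93, SE 0.12, adjusted p = 0.00539) that was lost without replicate 1 or replicate 3. In wild mice the values were 156, 115, 107 and 151 CPM untreated and 214, 371, 316 and 392 CPM after 20 Gy. The wild groups did not overlap either, and the 2.48-fold difference did not pass the test (adjusted p = 0.427) but rose with the animal as a block (log2 1.29, adjusted p = 0.000803).

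By 12 d untreated Mdm2 was at 92.9, 152, 100 and 100 CPM in C56BL6 mice, and after 20 Gy it was at 375, 400, 340 and 337 CPM. That rise was 3.28-fold (log2 1.71, SE 0.17, adjusted p = 0.00106) and passed the threshold without any 1 replicate. A. cahirinus went from 106, 122, 89.7 and 88.5 CPM to 234, 344, 200 and 200 CPM, a 2.44-fold rise (log2 1.29, SE 0.2, adjusted p = 0.00235) that also held without each replicate. Wild mice went from 70.3, 60.2, 56.3 and 78.2 CPM to 249, 217, 140 and 322 CPM. The lowest irradiated wild library, replicate 3, was still above all untreated ones. The 3.61-fold difference did not pass the test with all 4 replicates (log2 1.85, SE 0.26, adjusted p = 0.0618), passed it without replicate 3 (adjusted p = 0.0328), and rose with the animal as a block, with replicates 1 and 4 apart (adjusted p = 0.00276) or summed (adjusted p = 0.0251). With the block, the rise of Mdm2 at 12 d was smaller in A. cahirinus than in C56BL6 mice by 0.47 (interaction -0.47, adjusted p = 0.0285), a difference that without the block passed in 1 of the 4 fits that left out a replicate, that without replicate 2 (adjusted p = 0.00898), and not with all 4.

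Mdm4, the Mdm2 relative that inhibits p53 with little ligase activity of its own, did not follow Mdm2. At 24 h it was at 89.8, 95.5, 88.1 and 96.8 CPM in untreated C56BL6 cells and at 130, 118, 119 and 124 CPM after 20 Gy, 1.33-fold higher with no overlap (adjusted p = 0.0505, with the block 7.31e-05). In wild mice at 24 h it was at 78.3, 93.2, 87.7 and 120 CPM and at 84.4, 150, 174 and 183 CPM, higher in each animal but overlapping (log2 0.66, SE 0.25, adjusted p = 0.751, with the block 0.00647). In A. cahirinus at 24 h it was at 36.9, 37.6, 40.5 and 38.4 CPM and at 43.8, 37.6, 37.7 and 31.4 CPM, a log2 change of 0.0 (SE 0.11). The mouse values were thus higher at 24 h and the spiny mouse values were mixed. With the block this difference from C56BL6 mice was -0.43 (adjusted p = 0.00894) and that from wild mice was -0.63 (adjusted p = 0.034).

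At 12 d Mdm4 was lower after irradiation in the animals of 2 populations. In A. cahirinus it fell from 35.1, 36.8, 32.7 and 44.5 CPM to 20, 21.2, 29.6 and 29.6 CPM, to 0.684 of the untreated level (log2 -0.55, SE 0.16, adjusted p = 0.0337), with no overlap. That call was lost in each of the 4 fits that left out 1 replicate (adjusted p 0.0547 to 0.127). C56BL6 cells went from 73.1, 68.9, 88 and 107 CPM to 53.5, 57.1, 63.9 and 82.3 CPM, lower in each animal with overlapping groups, and fell only in the fit with the animal as a block (log2 -0.38, adjusted p = 0.00234, without it 0.154). In wild mice it was at 85.4, 72.3, 63.6 and 97.1 CPM and at 74, 106, 77.8 and 104 CPM, a change of 0.23 (SE 0.18, adjusted p = 0.65). With the block, the 12 d change of Mdm4 was lower in A. cahirinus than in wild mice by 0.77 (interaction -0.77, adjusted p = 0.0173).

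Ppm1d, the phosphatase also called Wip1, did not pass without the block in any comparison at 20 Gy with untreated cells. In C56BL6 mice at 24 h it was at 8.51, 8.61, 10.4 and 9.72 CPM untreated and at 10.5, 11.7, 11 and 11.7 CPM after 20 Gy, and the small difference passed only with the block (log2 0.28, adjusted p = 0.0436). In A. cahirinus at 12 d it was at 14, 12.9, 12.8 and 14.8 CPM and at 12.7, 12.3, 12.5 and 11.7 CPM (log2 -0.13, SE 0.09, adjusted p = 0.303). Each of those animals was lower by a little. The remaining changes at 20 Gy were -0.05 (C56BL6, 12 d), 0.21 (wild, 24 h), -0.17 (wild, 12 d) and -0.13 (A. cahirinus, 24 h), none past the threshold.

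Ccng1 encodes cyclin G1, which recruits a phosphatase to Mdm2. In C56BL6 mice at 24 h it was at 546, 778, 723 and 589 CPM untreated and at 946, 1280, 1230 and 1140 CPM after 20 Gy, 1.75-fold higher without overlap (adjusted p = 0.0835, with the block 3.17e-07). At 12 d it rose there 2.24-fold, from 297, 839, 482 and 510 CPM to 952, 1430, 1220 and 1140 CPM (log2 1.16, SE 0.29, adjusted p = 0.0224), a call lost without replicate 3 or replicate 4. In this group the untreated libraries ranged widely, replicate 1 lowest and replicate 2 highest. In A. cahirinus Ccng1 rose 2.75-fold at 24 h, from 149, 200, 132 and 107 CPM to 428, 431, 369 and 363 CPM (log2 1.46, SE 0.19, adjusted p = 0.00627, lost without replicate 1 or 3), and 3.24-fold at 12 d, from 147, 172, 103 and 93.3 CPM to 422, 573, 351 and 298 CPM (log2 1.69, SE 0.26, adjusted p = 0.00238). In wild mice it went from 564, 348, 343 and 455 CPM to 862, 1240, 986 and 1110 CPM at 24 h and from 260, 191, 336 and 246 CPM to 853, 678, 647 and 753 CPM at 12 d. Neither wild pair of groups overlapped, and in edgeR both differences passed only with the block (log2 1.33 and 1.57, adjusted p = 0.00058 and 0.00492) or, at 12 d, without replicate 3. DESeq2 called both without a block.

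Pidd1, whose protein assembles the caspase-2 platform known as the PIDDosome, stayed at low counts. It had the highest fold of the 6 targets in each mouse comparison of 20 Gy with untreated cells, but not with passaged cells. In C56BL6 cells it rose 2.28-fold at 24 h, from 12.4, 16.1, 14 and 16.5 CPM to 28.2, 31.2, 37 and 37.6 CPM (log2 1.19, SE 0.12, adjusted p = 0.0306), a call lost without replicate 2, 3 or 4. At 12 d it rose 3.12-fold, from 5.69, 14.3, 7.82 and 9.08 CPM to 22.3, 31.1, 28.3 and 32.5 CPM (log2 1.64, SE 0.27, adjusted p = 0.00475), and it missed the threshold without replicate 3 (adjusted p = 0.0511). In wild mice it went from 10.5, 7.96, 7.74 and 10.8 CPM to 21.2, 26.7, 38.5 and 36.1 CPM at 24 h, and from 4.85, 1.38, 4.35 and 5.59 CPM to 18.5, 18.7, 10.2 and 25.9 CPM at 12 d. The wild groups did not overlap, and the 3.35-fold and 4.66-fold differences passed in edgeR only with the block (adjusted p = 0.000321 and 0.012), the second no longer when replicates 1 and 4 were summed (adjusted p = 0.065). DESeq2 called both without a block. In A. cahirinus it rose 1.45-fold at 24 h, from 23.6, 19.1, 24.9 and 22.7 CPM to 30.2, 33.9, 36.8 and 27 CPM (log2 0.53, SE 0.12, adjusted p = 0.0476, lost in each of the 4 fits that left out a replicate). At 12 d the rise there was 2.18-fold, from 14.4, 14.9, 10.3 and 14.6 CPM to 26.5, 33.4, 27.1 and 29.7 CPM (log2 1.13, SE 0.14, adjusted p = 0.000844). With the block, the 24 h change of Pidd1 in A. cahirinus was smaller than in C56BL6 mice by 0.67 (interaction -0.67, adjusted p = 0.00155) and smaller than in wild mice by 1.2 (interaction -1.2, adjusted p = 0.00426).

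Trp53inp1 encodes a nuclear and autophagy protein that promotes phosphorylation of p53. Its values in A. cahirinus at 24 h were 23.5, 22.6, 22.2 and 21.9 CPM untreated, 47.7, 39.6, 45.4 and 45.7 CPM after 10 Gy and 59.7, 47.1, 49.7 and 54.7 CPM after 20 Gy. The animals lay close together, and the 2.38-fold rise at 20 Gy (log2 1.25, SE 0.08, adjusted p = 0.000699) passed without any 1 replicate. At 12 d it rose 1.5-fold there, from 84.5, 63.5, 81.1 and 74.1 CPM to 119, 97.7, 111 and 120 CPM (log2 0.58, SE 0.11, adjusted p = 0.00582), missing the threshold without replicate 4 (adjusted p = 0.0514). In C56BL6 mice it went from 29.4, 61.7, 64 and 57.4 CPM to 78.4, 102, 113 and 115 CPM at 24 h, and from 67.1, 154, 125 and 143 CPM to 117, 186, 182 and 195 CPM at 12 d. Replicate 1, the animal with the keratinocyte markers, was lowest in each of these groups. Neither difference passed in edgeR with all 4 replicates and no block (adjusted p = 0.208 and 0.21), and DESeq2 called the one at 24 h. Both rose without replicate 1 (adjusted p = 0.0149 and 0.0115) and with the block (log2 0.98 and 0.53, adjusted p = 5.37e-06 and 0.00476). In wild mice it went from 37.3, 15.7, 14.5 and 33.9 CPM to 66.3, 67.1, 89.2 and 91.3 CPM at 24 h and from 51.7, 23.2, 32.9 and 47.9 CPM to 88.8, 89.8, 56.4 and 106 CPM at 12 d, without overlap. In edgeR these differences passed only with the block (log2 1.74 and 1.2, adjusted p = 0.000803 and 0.0127), the second no longer when replicates 1 and 4 were summed (adjusted p = 0.0607). DESeq2 called both without a block.

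Zmat3, a zinc finger RNA-binding protein also called Wig1 and the gene with the exact site match above, separated A. cahirinus from C56BL6 mice at 24 h. It rose 1.98-fold in A. cahirinus, from 72.6, 84.7, 62.6 and 53.7 CPM to 147, 131, 123 and 131 CPM (log2 0.99, SE 0.15, adjusted p = 0.0101, lost without replicate 1 or 3). In C56BL6 mice it was at 141, 181, 147 and 155 CPM untreated and at 152, 173, 153 and 168 CPM after 20 Gy, a change of 0.05 (adjusted p = 0.908). The groups lay wholly apart in the spiny mouse and wholly mixed in C56BL6. The interaction was 0.92 (SE 0.18, adjusted p = 0.0106), 1 of 10 members, where 2.09% of all genes differed. It was past the threshold without replicate 2 but not without replicate 1, 3 or 4. At 12 d Zmat3 rose in both, 1.47-fold in C56BL6 mice from 118, 161, 117 and 120 CPM to 174, 216, 184 and 178 CPM (log2 0.56, SE 0.13, adjusted p = 0.015, lost without replicate 3 or 4) and 1.73-fold in A. cahirinus from 104, 101, 73.6 and 70.1 CPM to 155, 174, 130 and 137 CPM (log2 0.79, SE 0.16, adjusted p = 0.00752, lost without replicate 3). In wild mice at 12 d it went from 65, 42, 57.4 and 69.6 CPM to 122, 105, 114 and 151 CPM, 2.17-fold higher without overlap (adjusted p = 0.0722, with the block 0.0029, with the block and replicates 1 and 4 summed 0.0251). At 24 h the wild values were 159, 68.7, 94.3 and 126 CPM and then 163, 114, 144 and 156 CPM, a small difference that passed only with the block (log2 0.44, adjusted p = 0.0217).

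Btg2, an antiproliferative protein that works with the deadenylase complex, was another gene on which A. cahirinus and C56BL6 mice parted. In A. cahirinus it was at 21.8, 27.5, 22.7 and 16.2 CPM untreated and at 34.9, 44.4, 36.5 and 28.3 CPM after 20 Gy at 24 h, without overlap (1.67-fold, adjusted p = 0.0861, with the block 2.55e-05). At 12 d it rose 2.21-fold, from 34.6, 37, 34.4 and 34.6 CPM to 70.6, 89.8, 80.2 and 64.7 CPM (log2 1.14, SE 0.11, adjusted p = 0.000357), and passed without any 1 replicate. C56BL6 cells were at 101, 106, 164 and 117 CPM and at 111, 97.2, 141 and 111 CPM at 24 h, and at 107, 108, 82.7 and 56.6 CPM and 106, 117, 98.7 and 95.8 CPM at 12 d. Those groups overlapped at both times (log2 -0.09 and 0.25, adjusted p = 0.934 and 0.364). At 12 d the interaction was 0.89 (SE 0.23, adjusted p = 0.018), one of 2 members that differed between these populations, Trp53 being the other, where 18.8% of all genes did. It was lost without replicate 1, 2 or 3. At 24 h the interaction passed only with the block (0.8, adjusted p = 7.64e-06). Wild mice had 107, 55, 113 and 89 CPM untreated and 103, 83.7, 226 and 184 CPM after 20 Gy at 24 h, and 53.4, 13, 39.2 and 44.6 CPM and 84, 39.6, 64.5 and 88.2 CPM at 12 d. The wild groups overlapped at both times, and the differences passed only with the block (log2 0.67 and 1.02, adjusted p = 0.015 and 0.0115), the second no longer when replicates 1 and 4 were summed (adjusted p = 0.0559). Mouse Btg2 shares 898 bp of exon, 14.34% of its exon bases in the GENCODE annotation, with the antisense gene Gm31974, and the counting is not stated to use strand.

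Plk2, a polo-like kinase tied to centriole duplication, rose at 12 d in C56BL6 mice and A. cahirinus. At 24 h the changes at 20 Gy were 0.05 (C56BL6), 0.12 (wild) and 0.21 (A. cahirinus), none past the threshold, and the last rose with the block (log2 0.22, adjusted p = 0.0293). At 12 d it rose 3.08-fold in C56BL6 mice, from 119, 152, 124 and 66 CPM to 371, 426, 337 and 275 CPM (log2 1.62, SE 0.25, adjusted p = 0.00355), and passed without any 1 replicate. In A. cahirinus it rose 2.17-fold, from 59.1, 29, 49 and 53.7 CPM to 101, 67.4, 115 and 124 CPM (log2 1.12, SE 0.25, adjusted p = 0.0117), lost without replicate 3 or 4. In wild mice the replicates differed more than the doses did. Replicate 3 had 376 CPM untreated and 653 CPM after 20 Gy, and replicates 1, 2 and 4 had 50.7, 101 and 62.5 CPM and then 132, 130 and 168 CPM (log2 0.9, SE 0.79, adjusted p = 0.685). Each wild replicate was higher, and the fit with the animal as a block passed (log2 1.03, adjusted p = 0.019), but not with replicates 1 and 4 summed (adjusted p = 0.0931).

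**Figure D3:**
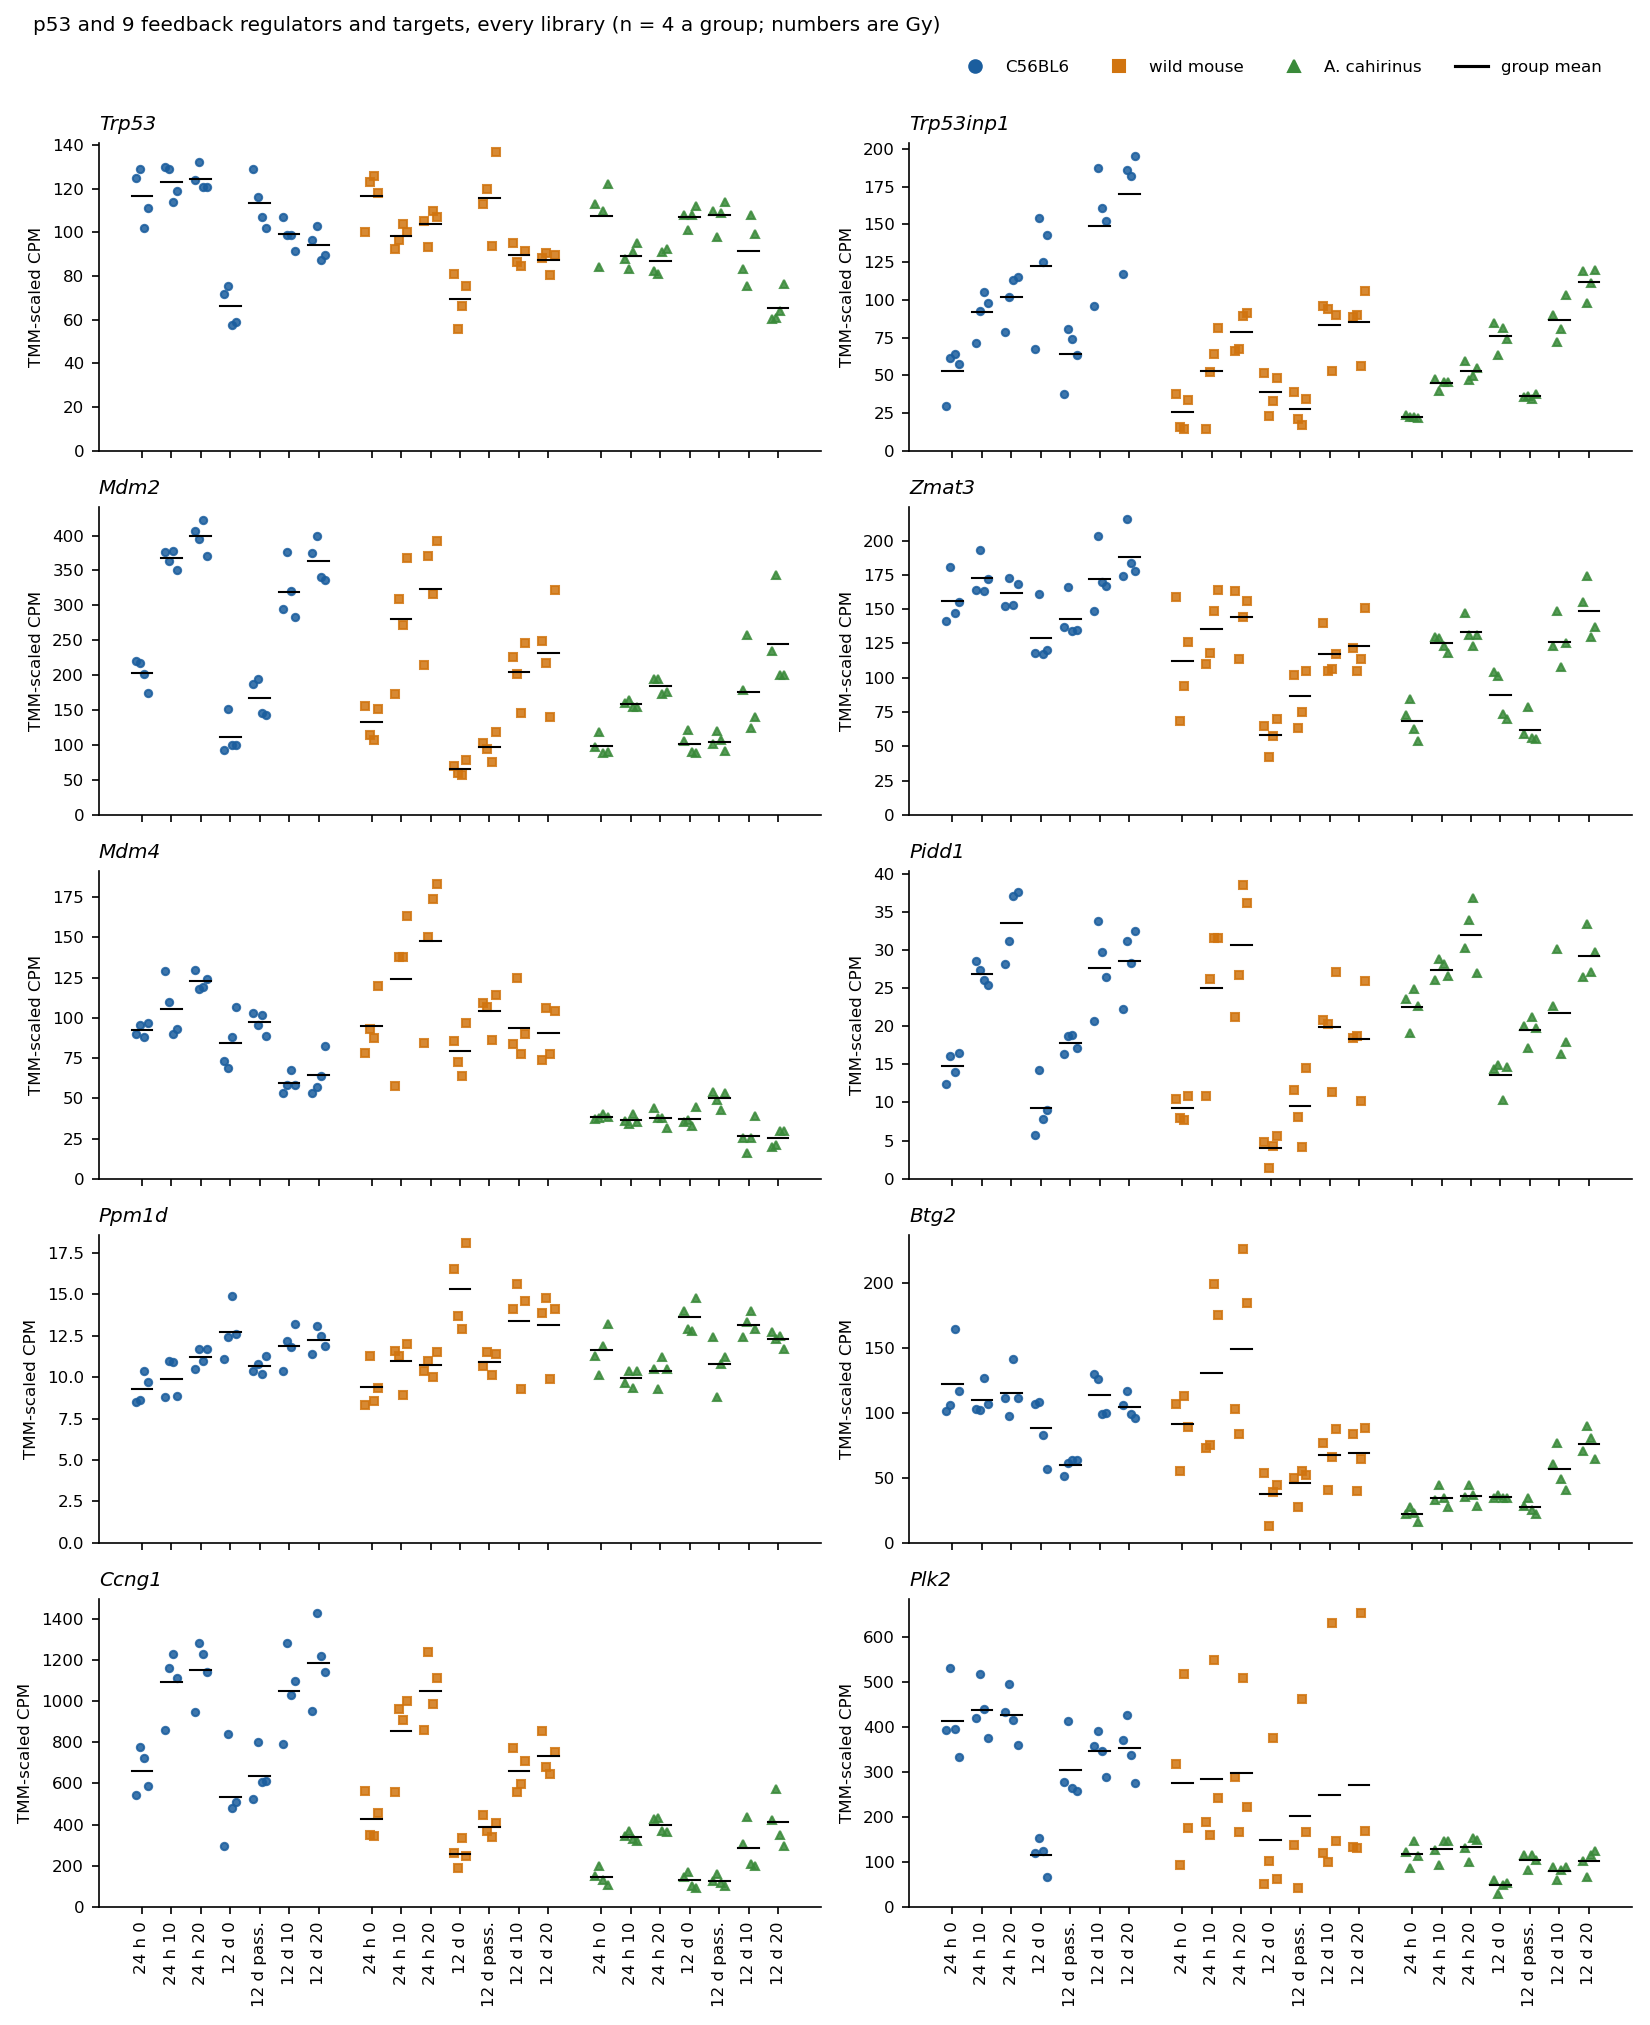
Level of each of the 10 genes in CPM in every library, by time and treatment; symbols are libraries, lines are group means, and colours and shapes mark C56BL6 mice, wild mice and A. cahirinus. Mdm2, Ccng1 and Pidd1 are high after both doses, Ppm1d is flat at low levels, and wild replicate 3 stands far above the other wild libraries for Plk2 at 12 d.

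Counted reads per kb of gene, Ccng1 was the highest or second highest of the 10 in every untreated group. In untreated C56BL6 cells at 24 h the mean levels were 188 CPM per kb for Ccng1, 92.1 for Plk2, 44.5 for Btg2, 40 for Mdm2, 28.9 for Trp53, 13.6 for Zmat3, 8.21 for Trp53inp1, 6.25 for Mdm4, 3.26 for Pidd1 and 2.93 for Ppm1d. Btg2 and Mdm2, Trp53inp1 and Mdm4, and Pidd1 and Ppm1d overlapped between libraries as neighbours in this order, and the other neighbours did not. In untreated A. cahirinus at 24 h Ccng1 (42.2), Plk2 (41.8) and Trp53 (37.8 CPM per kb) led the order and overlapped in turn. At 12 d untreated A. cahirinus had Trp53 (37.7) and Ccng1 (36.9 CPM per kb) at the top, overlapping, and after 20 Gy Ccng1 (118), Mdm2 (56.1), Btg2 (38.6) and Plk2 (36.4 CPM per kb) had higher means than Trp53 (23 CPM per kb), Plk2 overlapping Btg2 and Trp53. In wild mice at 12 d Mdm2 had 13 CPM per kb untreated, ranked below Trp53 at 17.2, and 45.7 after 20 Gy, ranked above Trp53 at 21.6. Levels of mice and A. cahirinus come from separate gene models and were not compared.

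Untreated wild and C56BL6 cells, which share a table, were compared directly. At 24 h 0 of 10 members differed, against 5.7% of all genes (4 had an unadjusted p under 0.05, 4 were lower in wild mice by DESeq2, and Ccng1 was lower without replicate 1). At 12 d Trp53inp1 (log2 -1.65, SE 0.33, adjusted p = 0.0375) and Zmat3 (log2 -1.14, SE 0.18, adjusted p = 0.0144) were lower in wild mice, against 2.93% of all genes. Neither call was firm: 1 remained without replicate 1 (Trp53inp1) and 1 without replicate 2 (Zmat3), 0 without replicate 3 or 4, and with wild replicates 1 and 4 summed Zmat3 passed (adjusted p = 0.0337) and Trp53inp1 did not (adjusted p = 0.0701).

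The lower dose gave the same directions for the members called. The 10 Gy and 20 Gy comparisons share their untreated libraries. At 24 h Mdm2 was the member called in C56BL6 mice (1.81-fold, log2 0.86, SE 0.08, adjusted p = 0.0466), where 0.007% of all genes were called. That count of 1 became 4 without replicate 1 and 0 without replicate 2, 3 or 4, and 5 with the block (11.5%). In A. cahirinus at 24 h Mdm2 (log2 0.71), Ccng1 (1.24), Trp53inp1 (1.01) and Zmat3 (0.9) rose, against 3.73% of all genes. The count of 4 was 0 without replicate 1 or 3 and 6 without replicate 2, and with the block it was 7 (27.6%). In wild mice at 24 h 0 members were called (0.0% of all genes), also with the block, where 3 had an unadjusted p under 0.05 and DESeq2 called 3.

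At 12 d after 10 Gy 5 members rose in C56BL6 mice, namely Trp53 (log2 0.6), Mdm2 (1.53), Ccng1 (1.0), Pidd1 (1.6) and Plk2 (1.6), against 20.9% of all genes. The count was 7 without replicate 1, 1 without replicate 3 and 3 without replicate 4, and 9 with the block (38.8%), Mdm4 being the 1 that fell (log2 -0.47, adjusted p = 0.013). In wild mice Mdm2 rose (log2 1.64, SE 0.19, adjusted p = 0.0274), against 0.264% of all genes. This count of 1 was 0 without replicate 1, 2 or 4, 2 without replicate 3, 0 with replicates 1 and 4 summed and 8 with the block (12.7%). In A. cahirinus 0 members passed after 10 Gy (2.87% of all genes), although 7 had an unadjusted p under 0.05, DESeq2 called 6, 4 passed without replicate 2 and 7 passed with the block (27.5%). Its Trp53 values after 10 Gy, 83.3, 75.4, 108 and 99.1 CPM, spanned the range from near the 20 Gy libraries to the untreated ones, and replicate 3, the highest, also had the lowest Mdm2 value of that group (179, 258, 125 and 140 CPM).

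Set directly against each other, 20 Gy and 10 Gy gave 0 called members in every population and time (0.0% of all genes, and 0.457% in A. cahirinus at 12 d). DESeq2 called 0 as well, and 0 to 2 members had an unadjusted p under 0.05. In that last comparison the block called 8 members, against 17.9% of all genes. Mdm2 rose further by 0.51, Ccng1 by 0.57, Trp53inp1 by 0.39, Zmat3 by 0.25, Pidd1 by 0.47, Btg2 by 0.47 and Plk2 by 0.35, and Trp53 fell by 0.46 (adjusted p from 0.00625 to 0.0487). Without replicate 2 the unblocked fit called 5 of them. With the block 3 members also differed at 24 h in A. cahirinus (Mdm2 by 0.22, Ccng1 by 0.21 and Trp53inp1 by 0.23, 0.302% of all genes) and 3 in C56BL6 mice (Mdm4 by 0.23, Trp53inp1 by 0.16 and Pidd1 by 0.31, 1.44% of all genes). The block called 0 members in C56BL6 mice at 12 d (0.297% of all genes) and in wild mice at 24 h (0.0%) and 12 d (0.257%, and 0.108% with replicates 1 and 4 summed).

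The unirradiated passaged cells at 12 d gave a second reference, and the members did not all keep their direction against it. Passaging alone raised Trp53 in C56BL6 mice from 72, 75.4, 57.8 and 59.1 CPM to 129, 116, 107 and 102 CPM (log2 0.79, SE 0.12, adjusted p = 0.00134) and in wild mice from 80.8, 55.8, 66.4 and 75.6 CPM to 113, 120, 93.7 and 137 CPM (log2 0.73, SE 0.16, adjusted p = 0.0302). In both mice the passaged libraries lay above all untreated ones. The wild call was lost without replicate 1, 2 or 4 and with replicates 1 and 4 summed (adjusted p = 0.15, with the block as well 0.0389). In A. cahirinus passaged Trp53 was at 110, 97.9, 109 and 114 CPM, beside the untreated 108, 101, 108 and 112 CPM (log2 -0.01, SE 0.06, adjusted p = 0.891).

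Against the passaged cells Trp53 was lower after 20 Gy. It fell by 0.3 in C56BL6 mice (SE 0.09, adjusted p = 0.0302), by 0.69 in A. cahirinus (SE 0.1, adjusted p = 0.00107) and, with the block, by 0.37 in wild mice (adjusted p = 0.0141, without it 0.107). The C56BL6 fall did not pass in any of the 4 fits that left out 1 replicate, and the A. cahirinus fall passed in all 4. The direction of Trp53 at 12 d in mice thus depended on the reference: higher than untreated, lower than passaged. Mdm4 fell against passaged cells in C56BL6 mice (log2 -0.62, SE 0.14, adjusted p = 0.00759, lost without replicate 2 or 3) and in A. cahirinus to 0.512 of the passaged level (log2 -0.97, SE 0.16, adjusted p = 0.00196), and was at -0.17 in wild mice (adjusted p = 0.548).

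In C56BL6 mice and A. cahirinus the members that rose over untreated cells at 12 d rose over passaged cells too, except Trp53 and Plk2. In the order C56BL6, wild and A. cahirinus, Mdm2 rose by 1.09, 1.28 and 1.25, Ccng1 by 0.87, 0.94 and 1.73, and Trp53inp1 by 1.39, 1.64 and 1.66. In all, 6 members rose and 2 fell in C56BL6 mice (41.6% of all genes called; 56.1% with the block) and in A. cahirinus (42.5%; 56% with the block), and 3 were called in wild mice, all higher (10.5%). The C56BL6 count of 8 was 5 without replicate 3. The wild count was 0 without replicate 1, 2 or 4 and with replicates 1 and 4 summed, 7 with the block (38%) and 7 with both (27.5%). Plk2 was at 278, 412, 265 and 257 CPM in passaged C56BL6 cells and at 116, 81.7, 116 and 104 CPM in passaged A. cahirinus cells. Both groups overlapped the 20 Gy ones, and the changes did not pass the test (log2 0.19 and -0.01, adjusted p = 0.431 and 0.981). In C56BL6 mice each replicate was higher after 20 Gy, at 371, 426, 337 and 275 CPM. Passaged against untreated, Plk2 rose by 1.41 in C56BL6 mice (SE 0.26, adjusted p = 0.00316) and by 1.11 in A. cahirinus (SE 0.2, adjusted p = 0.00651, lost without replicate 3).

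Trp53inp1 moved the other way with passaging. It fell in A. cahirinus from 84.5, 63.5, 81.1 and 74.1 CPM to 35.6, 36, 34.6 and 37.9 CPM (log2 -1.09, SE 0.09, adjusted p = 0.000522), without overlap and in all 4 fits that left out a replicate. In C56BL6 mice it fell from 67.1, 154, 125 and 143 CPM to 37.7, 80.6, 74 and 63.1 CPM (log2 -0.93, SE 0.3, adjusted p = 0.0337), a call kept without replicate 1 and lost without replicate 2, 3 or 4. In wild mice it was lower in each replicate (log2 -0.48) and fell with the block (adjusted p = 0.0435). In all, 6 members were called in passaged against untreated C56BL6 cells (4 higher and 2 lower, against 49.6% of all genes), 1 in wild cells (10.7%) and 5 in A. cahirinus (3 higher and 2 lower, 25.8%). With the block these counts were 5 (60.1%), 7 (31.9%) and 7 (49.5%), and the fall of Btg2 in C56BL6 mice (log2 -0.55, adjusted p = 0.0472) was the call lost (adjusted p = 0.0575). The wild count was 0 without replicate 1, 2 or 4 and with replicates 1 and 4 summed, 3 without replicate 3, and 3 with the sum and the block (14.3%). The C56BL6 count was 2 without replicate 3, and the A. cahirinus count was 2 without replicate 1, 1 without replicate 3 and 3 without replicate 4.

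**Figure D4:**
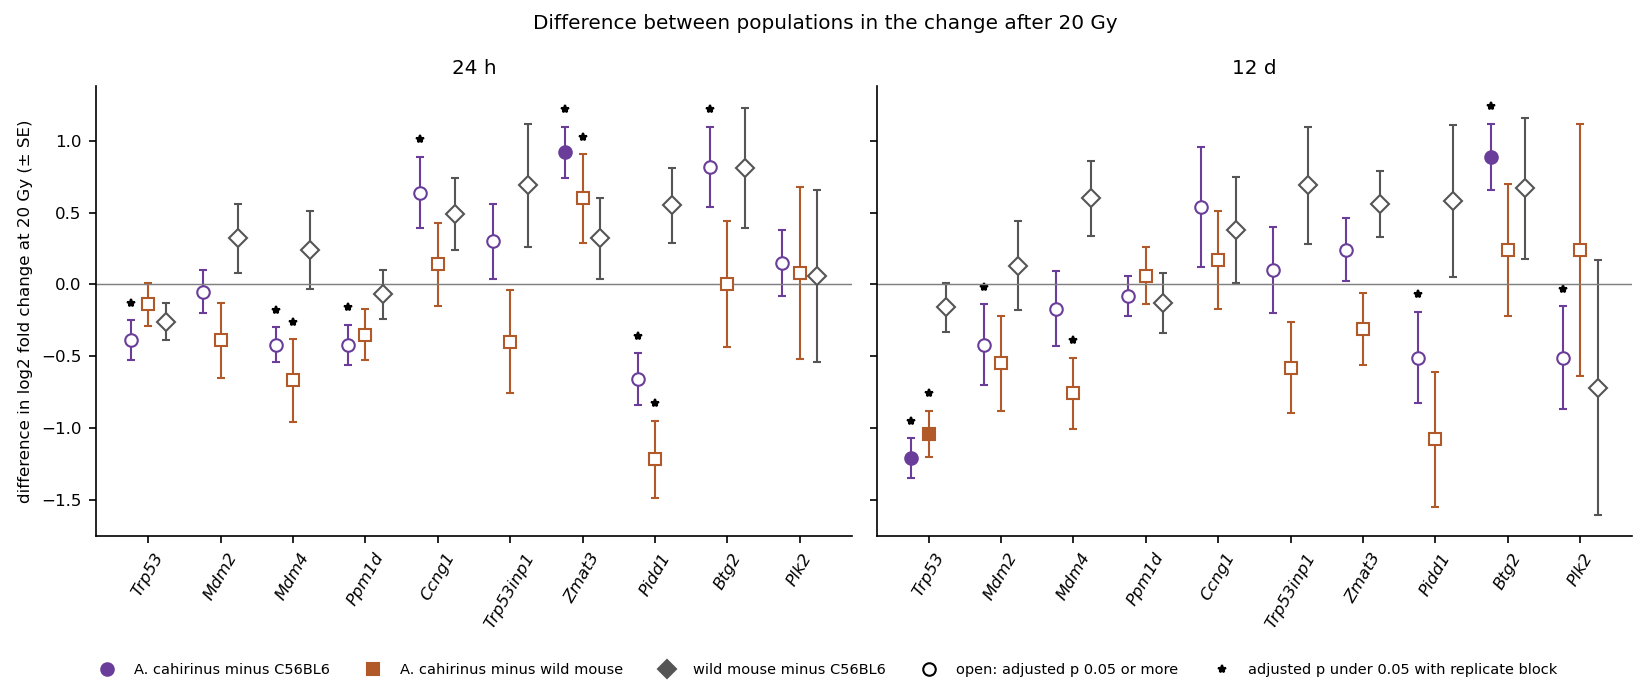
Difference between populations in the log2 change at 20 Gy over untreated cells for the 10 genes, with its SE. Each pair of populations is shown at 24 h and 12 d. Filled symbols passed the adjusted p of 0.05 and stars passed it with the animal as a block. Trp53 at 12 d lies farthest below 0 among the filled symbols (-1.21 for A. cahirinus against C56BL6 mice and -1.04 against wild mice), and Zmat3 at 24 h (0.92) and Btg2 at 12 d (0.89) lie above it.

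With the block further members differed between A. cahirinus and C56BL6 mice at 24 h, 7 in all against 16.8% of all genes. The change of Ccng1 was larger in A. cahirinus by 0.67 (adjusted p = 0.000303) and those of Trp53 and Ppm1d were lower by 0.38 and 0.42 (interactions -0.38 and -0.42, adjusted p = 0.00739 and 0.0284). Between A. cahirinus and wild mice 0 members differed at 24 h without the block (0.0% of all genes, 2 members with an unadjusted p under 0.05, 1 called by DESeq2) and 3 with it (7.25%). At 12 d Trp53 was the 1 member that differed between them (3.35% of all genes), 0 without replicate 1 or 4. The block called 2 there (Trp53 and Mdm4, 23.3% of all genes, and 17% with wild replicates 1 and 4 summed). Between A. cahirinus and C56BL6 mice at 12 d the block called 5 members (38% of all genes): Trp53, Btg2 and Mdm2, and further Pidd1 and Plk2, whose changes were smaller in A. cahirinus (interactions -0.56 and -0.54, adjusted p = 0.0473 and 0.0251).

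The closest companions of Mdm2 across groups were found by correlating group means after centring on population and time, as a description. In mice, over 14 groups and 10566 genes, the genes most like Mdm2 outside the 10 were Ass1 (r = 0.992), Tnfrsf23 (r = 0.986) and Inka2 (r = 0.984). Ccng1 reached r = 0.99 and Pidd1 r = 0.972, while Trp53 reached r = 0.279 and Mdm4 r = 0.02. In A. cahirinus, over 7 groups and 10484 genes, Ssbp3, Ndel1 and Gstm1 were most like Mdm2, each with r = 0.996. There Ccng1 had r = 0.993 and Btg2 r = 0.964, and Trp53 had r = -0.951 and Mdm4 r = -0.754. Mdm2 and Trp53 thus ran nearly opposite across the spiny mouse groups and were weakly related across the mouse groups. Like Trp53 itself were Nol10 (r = 0.991), Ptcd3 (r = 0.987) and Ddx27 (r = 0.984) in mice, and Chrac1 (r = 0.998), Map2 (r = 0.997) and Zfp524 (r = 0.996) in A. cahirinus. Groups of a population share animals, and those of a time share the batch.

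Beyond the 10 members, 23 further p53 targets were counted as a list. At 20 Gy 1 rose in C56BL6 mice at 24 h, the death receptor gene Eda2r (46.8 to 76.8 CPM, log2 0.72, SE 0.08, adjusted p = 0.0306), and 12 rose and 2 fell with the block, where 0.0895% and 17.6% of all genes were called. At 12 d 8 rose and 2 fell in C56BL6 mice, where 26.5% of all genes were called. Among them were Pmaip1, which encodes the cell death protein Noxa (6.29 to 32.4 CPM, log2 2.38, SE 0.5, adjusted p = 0.0113), and the stress cytokine gene Gdf15 (1.79 to 10.4 CPM, log2 2.55, SE 0.57, adjusted p = 0.0138). In A. cahirinus, where 22 of the 23 were tested, 8 rose at 24 h (3.59% of all genes called), and 10 rose and Ddb2 fell at 12 d (31.8%). There Cdkn1a, which encodes the cell cycle inhibitor p21, rose from a mean of 332 to 802 CPM at 24 h (log2 1.3, SE 0.12, adjusted p = 0.00311) and from 790 to 2000 CPM at 12 d (log2 1.36, adjusted p = 0.00123). In wild mice 0 passed at either time. With the block 16 rose and 1 fell at 24 h (12.5% of all genes), and 15 rose and 2 fell at 12 d (15.4%). With replicates 1 and 4 summed as well, 6 rose and 1 fell at 12 d (2.49%). Among those risen with the block at 12 d was Cdkn1a (83.3 to 408 CPM, log2 2.44, adjusted p = 0.00298). Without the block its change was 2.33 (adjusted p = 0.068). The list's median log2 change was 0.21, 0.56 and 0.42 at 24 h in C56BL6, wild and A. cahirinus cells and 0.37, 0.64 and 0.37 at 12 d, beside medians of all genes between -0.013 and 0.031.

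Of 15 regulators upstream of p53, 0 passed at 24 h in C56BL6 mice (0.0895% of all genes) and 3 at 12 d (26.5%). The 3 rose, among them Hipk2, a kinase that phosphorylates p53 (log2 1.07, SE 0.12, adjusted p = 0.00156). In A. cahirinus 1 of 15 passed at 24 h (3.59% of all genes) and 4 at 12 d (31.8%). The checkpoint kinase gene Chek1 fell at 24 h (log2 -1.18, SE 0.2, adjusted p = 0.0165) and at 12 d (log2 -1.24, adjusted p = 0.00539). At 12 d Hipk2 (log2 0.87, adjusted p = 0.0269) and Cdkn2a, the source of the Mdm2 inhibitor p19Arf and of p16, rose (log2 1.24, SE 0.29, adjusted p = 0.0135), and Atr fell as well. In wild mice 0 passed at either time, and 1 at each time with the block (12.5% and 15.4% of all genes).

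Of 10 proliferation genes 9 fell at 20 Gy in A. cahirinus at 24 h (median log2 -1.5), where 3.59% of all genes were called. At 12 d 9 fell (median -2.77), including Plk1 (log2 -4.56, SE 0.3, adjusted p = 8.75e-05), where 31.8% of all genes were called. In C56BL6 mice 0 passed at 24 h (median 0.01, 0.0895% of all genes). At 12 d Ccna2 fell (1 of 10, median -1.29, 26.5% of all genes), and 6 fell with the block (47.5%). In wild mice 0 passed at 24 h (median -0.59, 0.0% of all genes) and at 12 d (median -0.68, 0.0694%). With the block 5 fell at 24 h (12.5%) and 2 at 12 d (15.4%), and 0 at 12 d with replicates 1 and 4 summed as well (2.49%). The summed level of the list was 305 to 416 CPM in untreated A. cahirinus at 12 d and 63.9 to 77.3 CPM after 20 Gy, and 70.9 to 350 and 48.4 to 106 CPM in C56BL6 mice. In the passaged cells it was 736 to 1030 CPM in C56BL6 mice, 497 to 1020 in wild mice and 389 to 748 in A. cahirinus. All 10 genes rose in passaged over untreated cells in C56BL6 mice (median 2.58), where 49.6% of all genes were called. In wild mice 2 rose (10.7% of all genes), and 10 with the block (31.9%). In A. cahirinus 7 rose (median 0.86, 25.8% of all genes). Untreated and passaged cells at 12 d therefore differed in their cycling genes. The part of proliferation in the members' values was not tested.

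Without the block, fibroblast and other markers passed the test at 12 d in 2 populations. In C56BL6 mice, where 26.5% of all genes were called, 5 of 10 fibroblast markers fell at 20 Gy (median log2 -1.61). Their summed level was 30000 to 49900 CPM untreated and 11300 to 15300 CPM after 20 Gy. The macrophage genes Cd68 and Csf1r rose, the list's sum going from 6.54 to 9.34 CPM to 16 to 22 CPM. In all C56BL6 libraries Ptprc, Adgre1 and Cd3e reached at most 0.181, 0.053 and 0.0301 CPM. The endothelial gene Pecam1 rose there as well, from a mean of 0.098 CPM, where 3 counts are 0.075 to 0.113 CPM, to 1.09 CPM. The sums of the endothelial list overlapped, at 6.05 to 19.1 CPM untreated and 7.6 to 30.3 CPM after 20 Gy. The smooth muscle gene Myh11 also rose, its list's sum going from 42.3 to 71.1 CPM to 108 to 148 CPM. In A. cahirinus, where 31.8% of all genes were called, Col1a1 fell (1 of 10 fibroblast markers), the summed levels being 31400 to 37000 CPM and 20900 to 33900 CPM. Cd68, Cdh5, Pecam1 and Cspg4 rose there, Pecam1 from a mean of 0.163 CPM to 1.77 CPM. The macrophage and endothelial sums were 1.24 to 2.23 and 0.586 to 1.9 CPM untreated and 2.88 to 5.48 and 2.79 to 4.83 CPM after 20 Gy. Without the block no marker passed at 24 h or in wild mice. With the block Col3a1 fell in C56BL6 mice at 24 h (log2 -0.57, adjusted p = 0.00075, 17.6% of all genes called). It also fell in wild mice at 24 h (log2 -0.97, adjusted p = 0.000124, 12.5%) and 12 d (-1.7, 0.025, 15.4%). Pecam1 rose with the block in wild mice at 12 d, from a mean of 0.0648 to 0.792 CPM (adjusted p = 0.0127). In A. cahirinus at 24 h Col1a1 rose with the block (log2 0.29, adjusted p = 0.0259, 24.1%). Trp63, the other p53 relative, fell in C56BL6 mice at 12 d (1.82 to 0.389 CPM, log2 -2.2, SE 0.5, adjusted p = 0.0151). The part of these shifts in the members' values was not tested.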

How the data were processed

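RNA sequencing of primary skin fibroblasts was analysed from 84 libraries in 21 groups of 4. The authors deposited raw counts of reads per gene, made with featureCounts 2.0.3 against GRCm39 with Ensembl 108 annotation for mice and an assembly named AcoCah2 for A. cahirinus, per the file headers. The submitters' processing notes also list Trim Galore and HISAT2. Per the file headers, counting ran with default settings for strand, multiply mapped reads and overlapping genes, so exons shared with opposite-strand genes (3.56% of the GENCODE exon bases of Trp53, 4.51% of Mdm2, 2.59% of Ccng1 and 14.34% of Btg2) are uncertain. Gene lengths deposited beside the counts, other values in bp, were used for CPM per kb. All count columns were matched to a library by name (0 unused). Total counts were 26.65 to 39.82 M (C56BL6), 17.42 to 35.98 M (wild) and 25.55 to 52.86 M (A. cahirinus), so that 3 counts are 0.075 to 0.113, 0.083 to 0.172 and 0.057 to 0.117 CPM; this covers counting error only. Counts of 126 replicate pairs differed by 7.95 to 572.72 times the sampling variance, and none was merged.

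Each comparison was fitted over all genes of its groups with edgeR 4.0.16 (R 4.3.3): filterByExpr, TMM scaling, the quasi-likelihood test without a block, and Benjamini-Hochberg adjustment at 0.05. The script was tested on simulated data. Of 56980 mouse identifiers 56236 had a symbol in the GENCODE annotation of the same build, from which the coordinates come. Differences between populations in their change were interactions over the 18109 symbols found once in each table. Replicate numbers were taken from the labels, where library names give each number 1 animal code within a population. As a check, deviations from group means correlated between same-numbered libraries at 0.55 to 0.91 on average over 24 comparisons (lowest single value 0.35) and between other numbers at -0.29 to -0.11. Alternatives were RLE size factors, no filter, DESeq2 1.42.0, the replicate block, leaving out each replicate number (without the block), and, added after seeing the data, wild 12 d replicates 1 and 4 summed, with and without the block.

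The 10 members and the gene lists were chosen with earlier results of these data known. All members were counted in every comparison, and each is described at 20 Gy against untreated cells. In the other comparisons values are given for some members only, mostly those called. Of each list, the 3 genes with the largest change among those past the threshold with the block at 20 Gy could be named, and for Mdm2 and Trp53 the 3 genes with the highest correlation of mean log2 CPM (1 added to CPM, mean at least 5 CPM). The library markers, the lost and fallen list members named beside counts, and Trp73 were named after their values were seen.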

Additional observations from a re-analysis of the deposited data

Results flagged for a closer look

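In 12 of 210 groups of 4 libraries (5.71%, where chance gives about 1 in 20) the highest or lowest library of a member lay far from the other 3. For Plk2 the highest library stood apart in C56BL6 passaged cells (412 CPM) and in wild 12 d untreated (376 CPM), 10 Gy (631 CPM) and 20 Gy cells (653 CPM), the 3 wild values being replicate 3. For Zmat3 it was the highest in C56BL6 untreated (161 CPM) and passaged cells (166 CPM) at 12 d and in A. cahirinus passaged cells (78.3 CPM). For Trp53inp1 it was the lowest in C56BL6 12 d 20 Gy cells (117 CPM) and in wild 12 d 10 Gy cells (53.1 CPM). At 12 d in untreated cells it was the highest for Mdm2 in C56BL6 mice (152 CPM) and for Btg2 in A. cahirinus (37 CPM), and the lowest for Pidd1 in A. cahirinus (10.3 CPM).

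In 4 cases the change at 20 Gy over untreated cells differed between populations by the interaction test. Trp53 at 12 d changed by -1.21 and -1.04 relative to C56BL6 and wild mice in A. cahirinus. Zmat3 at 24 h changed by 0.92 and Btg2 at 12 d by 0.89 relative to C56BL6 mice. Against passaged cells Trp53 at 12 d was lower after 20 Gy in C56BL6 mice as well as in A. cahirinus. The difference between populations was not tested against that reference.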

How the results depend on the processing

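Counts below are members called of 10. For DESeq2, RLE, no filter and the fits leaving out a replicate, the share of all genes called is not given. Those counts are thus a description and no measure of excess over all genes. DESeq2 called 5 (C56BL6 24 h), 4 (wild 24 h) and 5 (wild 12 d) at 20 Gy; 3, 3, 5 and 6 at 10 Gy (C56BL6 24 h, wild 24 h, wild 12 d, A. cahirinus 12 d); 4 for wild passaged against untreated; 3 and 1 for the 24 h differences of A. cahirinus from C56BL6 and wild mice; and 4 and 5 for untreated wild against C56BL6 cells at 24 h and 12 d. RLE size factors gave 2 (C56BL6 24 h 10 Gy), 2 (wild 12 d 10 Gy) and 1 (untreated wild against C56BL6, 24 h). Without a filter there were 1 (wild 12 d 20 Gy) and 2 (C56BL6 24 h 10 Gy). With the replicate block the moved counts at 20 Gy were 6 (C56BL6 24 h), 7 and 7 (wild 24 h and 12 d) and 8 (A. cahirinus 24 h); at 10 Gy 5 and 9 (C56BL6 24 h and 12 d), 8 (wild 12 d), 7 and 7 (A. cahirinus); for 20 against 10 Gy 3 (C56BL6 24 h), 3 and 8 (A. cahirinus 24 h and 12 d); for wild cells 7 at 20 Gy against passaged and 7 for passaged against untreated; and for differences 7 and 5 (A. cahirinus and C56BL6, 24 h and 12 d) and 3 and 2 (A. cahirinus and wild). The block changed no other count by over 1.5 times and could not be fitted for wild against C56BL6 untreated cells, which come from different animals. With wild 12 d replicates 1 and 4 summed the counts were 0 (10 Gy), 0 (20 Gy against passaged), 0 (passaged against untreated) and 1 (untreated wild against C56BL6), and with the block as well 3 (20 Gy), 5 (10 Gy), 7 (against passaged), 3 (passaged) and 2 (difference from A. cahirinus). The cause of these moves was not tested.

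Leaving out 1 replicate number gave, at 20 Gy, 0 to 4 and 2 to 7 (C56BL6 24 h and 12 d), 0 to 0 and 0 to 2 (wild) and 1 to 6 and 6 to 8 (A. cahirinus); at 10 Gy 0 to 4 and 1 to 7, 0 to 0 and 0 to 2, and 0 to 6 and 0 to 4. For 20 against 10 Gy it gave 0 to 5 in A. cahirinus at 12 d and 0 to 0 elsewhere. Against passaged cells it gave 5 to 7 (C56BL6), 0 to 4 (wild) and 8 to 8 (A. cahirinus), and for passaged against untreated 2 to 4, 0 to 3 and 1 to 6. For differences it gave 0 to 1 and 1 to 2 (A. cahirinus and C56BL6), 0 to 0 and 0 to 1 (A. cahirinus and wild) and 0 to 0 at both times (wild and C56BL6), and 0 to 1 at both times for untreated wild against C56BL6 cells.

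Of the 60 single changes at 20 Gy, 59 kept direction and call under RLE, 57 without a filter, 45 under DESeq2 and 36 with the block, where 23 passed in addition. Values near 0 changed sign: Ppm1d in C56BL6 mice at 12 d was 0.02 without replicate 3 (-0.09 without replicate 1), and Mdm4 in A. cahirinus at 24 h, 0.0 in the design used, was -0.01 (RLE), 0.0 (no filter, just below), -0.01 (DESeq2), -0.01 (block), -0.1 (without replicate 1) and -0.02 (without replicate 2), with 0.07 without replicate 4. RLE moved the median of all genes by at most 0.034. Replicate pairs differed by at least 7.95 times the sampling variance.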
